A study of Rattus norvegicus with 12 samples.

Results

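Among 14985 features measured in rat motor cortex, the 100 described here stood lowest in all 3 unstimulated rats lesioned with 6-OHDA, a rat model of Parkinson's disease (labelled PD), and higher in every other rat. They were chosen by their measured values. A feature's level was taken as log2(CPM + 0.5), where CPM is a read count scaled by the authors to a common library size, and its gap was the lowest level in the other 9 libraries minus the highest level in the 3 PD libraries. The 100 features with the largest positive gap were taken from those with a mean of at least 0.5 CPM, out of 16534 in the table. Every feature in the table had reads in every library. A feature without any read in a PD library was thus not available to the rule. The low level in PD rats is therefore how the members were found, and it is described here without a test.

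The 12 libraries are messenger RNA from rat motor cortex (Rattus norvegicus), each taken as a separate rat, with 3 rats in each of 4 groups. Control rats (ctrl) and PD rats were left unstimulated. The other groups are labelled stim on ctrl, here stimulated control, and stim on PD, here stimulated PD. Stimulation was applied with a graphene electrode array lying on primary motor cortex, at 130 Hz, for 1 hour each day for 2 weeks, and whether stimulated controls followed this schedule is not given in the sources used here. Strain, age, sex, the side sampled and any sham surgery are likewise not given there. Libraries held 42905441 to 62082830 counted reads.

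The toxin 6-OHDA is carried into catecholamine neurons by their own transporters and kills them. The motor cortex receives a sparse dopamine input from the midbrain, and it also loses its normal drive from the basal ganglia when nigral dopamine neurons die. A piece of cortex holds neurons, glia, vessels and often some meninges, and a library mixes RNA from all of them, so fewer cells of a type and less RNA per cell cannot be told apart.

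The table gives Ensembl identifiers without gene symbols, and 0 of the 100 members matched the reference gene table used here. Members are therefore given by rank, with identifiers for the first 2, and were not grouped by function. The labelled tissue was not checked against marker genes for the same reason, and no sequence is shown.

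More features stood below all other libraries in PD rats than in any other group. All 3 PD libraries lay below the other 9 for 810 features, 5.41% of those tested. The same count with another group in the lowest place was 60 for control (0.400%), 63 for stimulated control (0.420%) and 222 for stimulated PD rats (1.48%). The number for PD rats fell to 605 with TMM, 600 with median-of-ratios and 426 with quantile scaling, and under these scalings the other groups gave between 60 and 320. On the deposited CPM the gap was also wider in PD rats. It ran from 0.49 to 2.02 in the 100 members, with a median of 0.69, and 20 members had a gap of at least 1. Of all features, 1 reached the gap of the last member with stimulated controls lowest, and 0 did so with control or stimulated PD rats lowest.

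The opposite direction depended on the scaling. On the deposited CPM all 3 PD libraries lay above the other 9 for 111 features (0.741%), against 82 with control rats highest, 224 with stimulated controls and 231 with stimulated PD rats. The number for PD rats rose to 358 with TMM, 394 with median-of-ratios and 467 with quantile scaling. Under each of these it was the highest of the 4 groups, and with quantile scaling it exceeded the 426 in the downward direction. The widest upward gap in PD rats on the deposited CPM was 0.37.

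**Figure D1:**
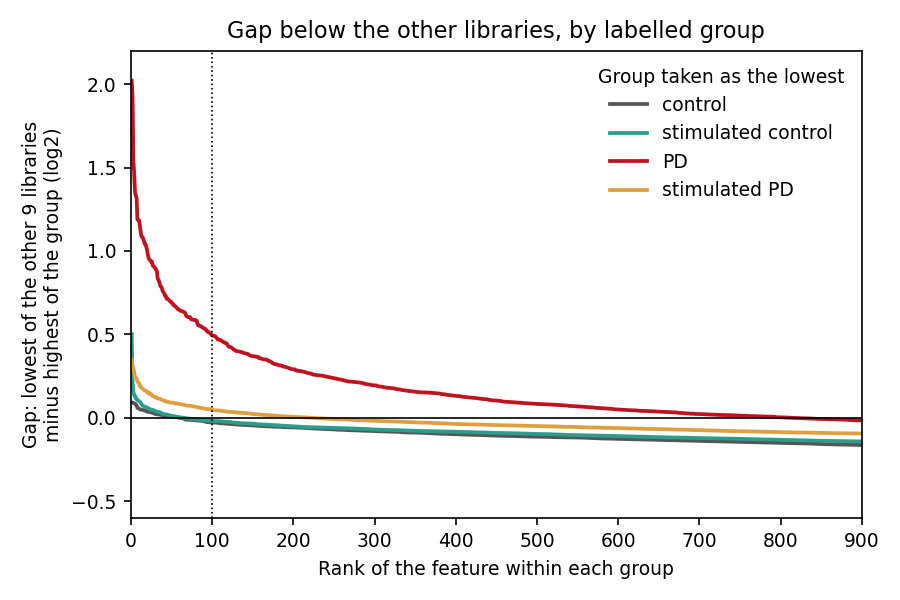
Gap of each feature (vertical axis, log2 units) against its rank (horizontal axis), with each of the 4 labelled groups in turn taken as the lowest; the dotted line marks rank 100. The line for PD rats crosses 0 after 810 features and stands at 0.49 at rank 100, where the lines of the other 3 groups lie near 0.

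The last 3 features inside the limit had gaps of 0.504, 0.498 and 0.495, and the first 3 outside it had 0.492, 0.492 and 0.489. The limit thus cuts through a continuous series and marks no natural boundary. How many features qualified depended on a few libraries, although leaving one out can only raise the number. It rose to 1863 without PD rat 1, 1634 without PD rat 3 and 1765 without stimulated PD rat 3, and lay between 826 and 1067 without any other library. Taking the 100 largest gaps again kept 46 members without stimulated PD rat 3, 54 without PD rat 1 and 73 without PD rat 3.

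The largest gap belonged to ENSRNOG00000014532. It stood at 12.8, 7.38 and 7.44 CPM in control rats 1 to 3, at 4.37, 9.77 and 5.34 CPM in stimulated controls, at 0.127, 0.148 and 0.0966 CPM in PD rats and at 6.98, 24.8 and 2.13 CPM in stimulated PD rats. The 3 PD values lay close together and rest on 6, 8 and 6 reads, whereas the lowest of the other libraries, stimulated PD rat 3, held 99 reads. The lowest of the other 9 libraries was 14.4 times the highest PD library. Group means were 9.21 ± 3.12 CPM in control, 6.49 ± 2.88 in stimulated control, 0.124 ± 0.0258 in PD and 11.3 ± 11.9 in stimulated PD rats (SD, n = 3).

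ENSRNOG00000043451 came second and varied far more among the rats that were not PD. It stood at 18.9, 9.21 and 21.0 CPM in control rats, at 18.6, 18.2 and 65.7 CPM in stimulated controls, at 0.170, 0.130 and 0.290 CPM in PD rats and at 2.51, 140.3 and 5.23 CPM in stimulated PD rats. Stimulated PD rat 2 was the highest library of all, while the other stimulated PD rats lay between the PD and control rats. Means were 16.4 ± 6.30 CPM in control, 34.2 ± 27.3 in stimulated control, 0.196 ± 0.0835 in PD and 49.3 ± 78.8 in stimulated PD rats (SD, n = 3), so the spread in stimulated PD rats exceeded their mean. In each of these features the 95% exact Poisson intervals of every PD library lay below those of every other library, and such intervals cover counting error only. The rule chose the features for this order, so their separation is a description of the selection.

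**Figure D2:**
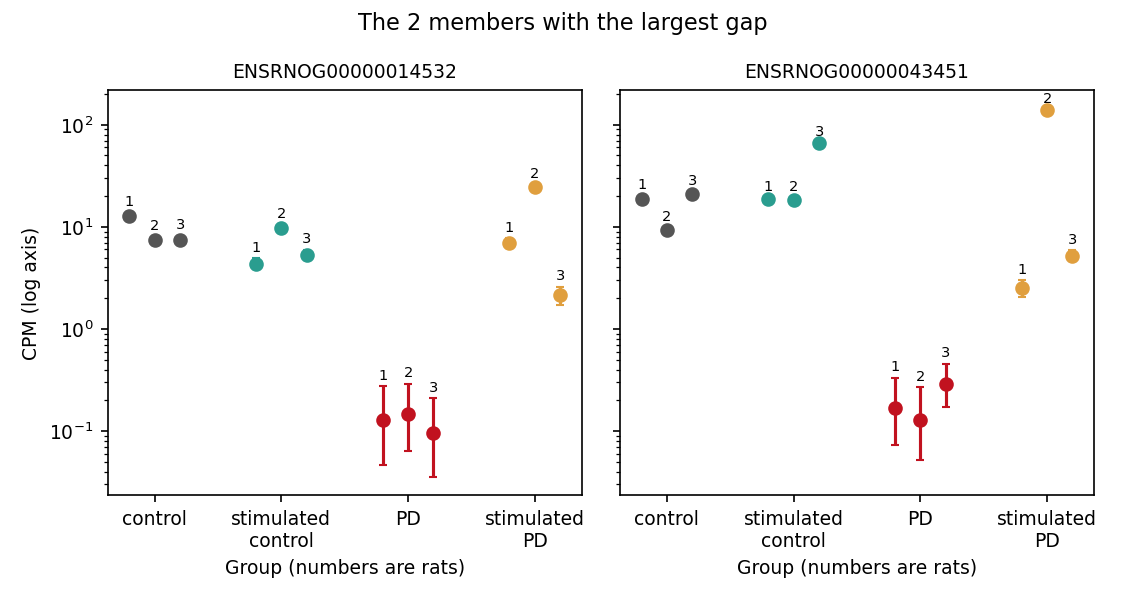
Level in CPM (vertical log axis) of the first 2 members in each of the 12 libraries, by group; numbers are rats and bars are 95% exact Poisson intervals, which cover counting error only. All PD values lie at or below 0.290 CPM, and stimulated PD rat 2 is the highest library in both panels.

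Features further down the ranking kept the pattern with a narrower margin. The member of rank 3 stood at 1.04 to 3.37 CPM in PD rats and at 10.8 to 59.4 CPM in the other 9. The member of rank 30 showed how one rat could differ from its group: stimulated control rat 1 had 82.9 CPM, whereas the other stimulated controls had 4.71 and 5.95 CPM. Across members, the ratio of the lowest of the 9 libraries to the highest PD library had a median of 1.90 and ran from 1.44 to 14.4, and 44 members had a ratio of at least 2.

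By group mean, the members were 5.98 times as high in control as in PD rats (median, range 2.32 to 83.4). The ratio was 7.11 for stimulated controls (2.75 to 174.0) and 5.78 for stimulated PD rats (1.90 to 251.2). These ratios describe what the rule selected. The summed level of the 100 members was 1413 ± 602 CPM in control, 1734 ± 409 in stimulated control, 258 ± 59.3 in PD and 1349 ± 806 in stimulated PD rats (SD, n = 3).

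The members were mostly features of low to middling abundance. Their mean over all libraries had a median of 7.14 CPM and ran from 0.679 to 72.1 CPM, against a median of 22.1 CPM for all features tested. Of the members 39 lay below 5 CPM, 57 between 5 and 50 CPM and 4 at 50 CPM or above, where all tested features divided into 21.7%, 48.5% and 29.8%. The most abundant member, of rank 11, stood at 207.3, 76.2 and 48.8 CPM in control rats, 123.4, 72.6 and 140.8 CPM in stimulated controls, 14.1, 2.18 and 3.70 CPM in PD rats and 74.8, 69.3 and 31.9 CPM in stimulated PD rats. That of rank 6 stood at 95.6, 56.2 and 35.1 CPM in control rats, 95.7, 52.3 and 83.9 CPM in stimulated controls, 10.4, 4.38 and 7.57 CPM in PD rats and 67.4, 204.7 and 26.9 CPM in stimulated PD rats. In both, control rat 1 was the highest control, but stimulated PD rat 2 was the highest of all libraries only for rank 6. The members of ranks 83 and 73 had 131.6, 60.5 and 45.4 CPM and 92.6, 57.3 and 38.1 CPM in control rats, and 70.6, 61.3 and 97.1 CPM and 123.5, 57.8 and 106.5 CPM in stimulated controls. They had 22.3, 12.5 and 15.8 CPM and 6.25, 5.20 and 8.57 CPM in PD rats, and 68.1, 77.9 and 33.0 CPM and 46.0, 133.5 and 13.3 CPM in stimulated PD rats. In all 4 of these members stimulated PD rat 3 was the lowest library outside the PD group.

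The PD libraries held a median of 62 reads per member and as few as 2, and 17 members had under 10 reads in at least 1 PD library. As a description of the values that chose the members, the 95% Poisson interval of the highest PD library overlapped that of the lowest other library in 3 of the 100.

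**Figure D3:**
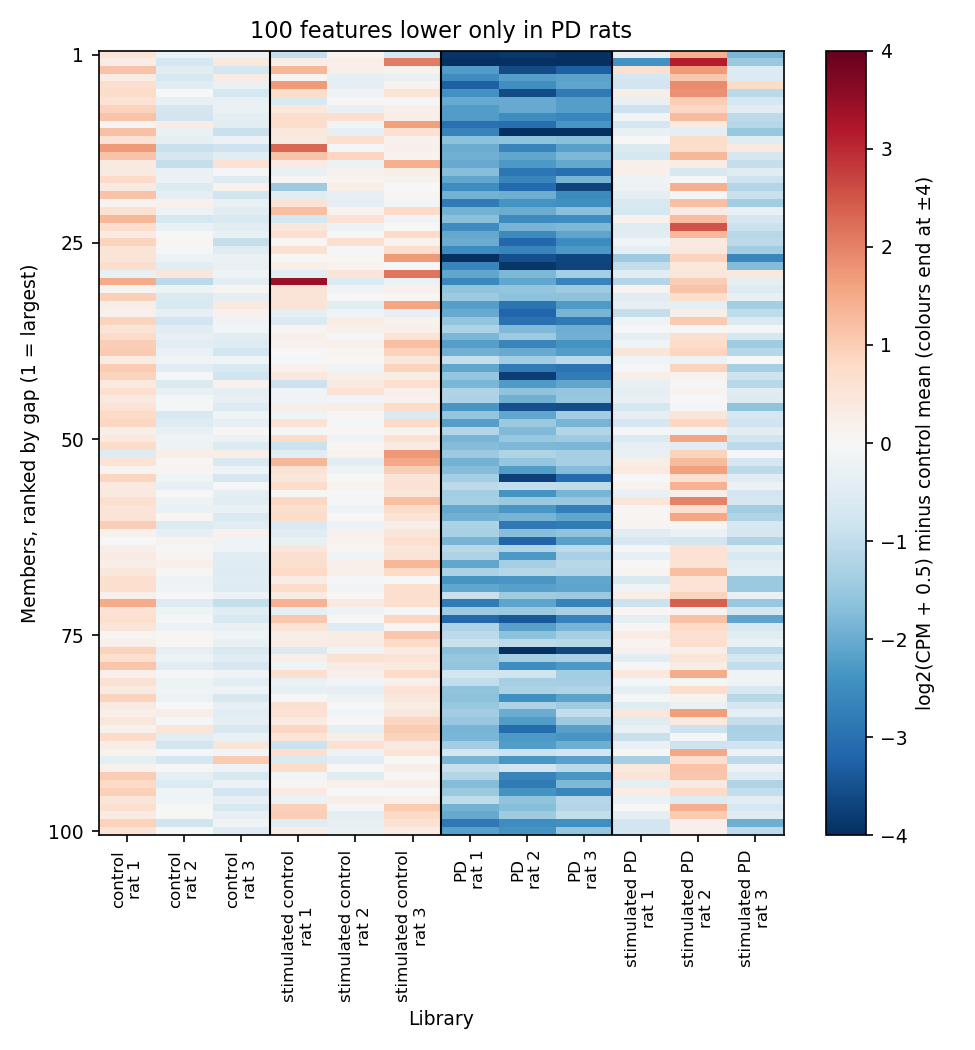
Level of the 100 members (rows, by gap) in the 12 libraries (columns), as log2(CPM + 0.5) minus the mean of the 3 control rats; colours end at 4 log2 units either way. The PD columns are low throughout by selection, and among the other columns control rat 1 and stimulated PD rat 2 are mostly high and stimulated PD rat 3 mostly low.

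The rule set a floor under the 9 rats that were not PD, since none of them could fall to the PD level, and it gave these libraries no order among themselves. The members' median level was 12.8, 5.42 and 6.37 CPM in control rats 1 to 3, 9.68, 7.91 and 9.60 CPM in stimulated controls and 5.84, 13.2 and 4.06 CPM in stimulated PD rats. The PD rats stood at 1.51, 1.06 and 1.12 CPM. Rats of 1 group thus differed more than 2-fold in control and more than 3-fold in stimulated PD rats. Stimulated PD rat 2 was the highest of the 9 for 36 members, control rat 1 for 34 and stimulated control rat 3 for 22.

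Stimulated PD rat 3 was the lowest of the 9 libraries for 71 members and so set the gap of most of them. Stimulated PD rat 1 was lowest for 9, control rat 3 for 8 and control rat 2 for 6. On the other side of the gap, PD rat 1 was the highest PD library for 55 members, PD rat 3 for 29 and PD rat 2 for 16. Relative to the control mean, the median member lay 1.84, 2.21 and 2.01 log2 units lower in the PD rats and 0.71 lower in stimulated PD rat 3, and 0.67 higher in stimulated PD rat 2.

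Other measures of the libraries moved in part with these levels. The 10 most abundant features took 9.85% to 11.5% of the reads in PD rats and 12.3% in stimulated PD rat 3, 9.68% and 9.88% in the other stimulated PD rats, and 7.64% to 8.71% in the unlesioned rats. Features below 1 CPM numbered 2825 to 2976 in PD rats and 2768 in stimulated PD rat 3, against 2126 to 2603 in the other 8 libraries. Reads that fell outside the features of the table made up 0.019% to 0.0227% in PD rats and 0.0264% in stimulated PD rat 3. In the other 8 libraries they made up 0.0337% to 0.13%. The table holds only features with reads in every library. A feature without reads in some library, such as a PD library, would therefore fall in this share, and its size was not tested. The median over all features lay between 0.06 and 0.20 log2 units below the control mean in PD rats and 0.16 below it in stimulated PD rat 3. It lay 0.07 below it in stimulated PD rat 1 and 0.06 below it in PD rat 3, although the median member lay 0.29 below the control mean in the former and 2.01 below it in the latter. Counted reads did not separate the groups, at 47165351 to 62082830 in PD and 42905441 to 58122292 in the other libraries. The part of these measures in the members' pattern was not tested.

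The members rose and fell together from rat to rat. Over the 9 libraries without PD, the mean Pearson r over the 4950 pairs of members was 0.57, against 0.06 over all pairs of tested features, and 96.6% of member pairs had a positive r. With the group means removed the values were 0.61 and 0.05, so the shared movement lay between rats of the same group. Each member was also set against the mean of the other 99. The median r was 0.80, 50 members reached at least 0.8, and 0 members fell below 0. In 3 members r was under 0.3, the lowest being 0.14. These are descriptions over 9 libraries that share depth and composition. Whether the rule's margin favours features that differ widely between rats was not tested.

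The members were also more variable than most features. Their SD within a group, pooled over the 3 groups without PD, had a median of 0.65 log2 units, against 0.16 for all features tested. Among features at 5 to 50 CPM the medians were 0.70 and 0.15. The median SD of the members was 0.55 in control, 0.40 in stimulated control, 0.34 in PD and 0.73 in stimulated PD rats. For all features it was 0.13, 0.16, 0.29 and 0.14 in the same order, so the PD rats were the most variable group over all features and the least variable over the members, whose levels there were low by selection.

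Features outside the 100 that followed the members among the 9 other rats were also mostly low in PD rats. The 100 non-members with the highest r to the mean member profile over the 9 libraries had r between 0.92 and 0.98. This list was chosen after the data were seen. Its ranking did not use the features' own PD values, but the member profile and the removal of members both rest on PD values. For 91 of these 100 non-members the PD mean lay below the mean of the other 9, against 64.9% of all features. The median difference was -0.86 log2 units, against -0.11. Every PD library lay below the mean of the 9 in 77 of them (33.4% of all features), and below each of the 9 in 28 (5.41%). Movement with the members was common in the table, since 961 of 14885 non-members had an r of at least 0.8. No test was made on this list.

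**Figure D4:**
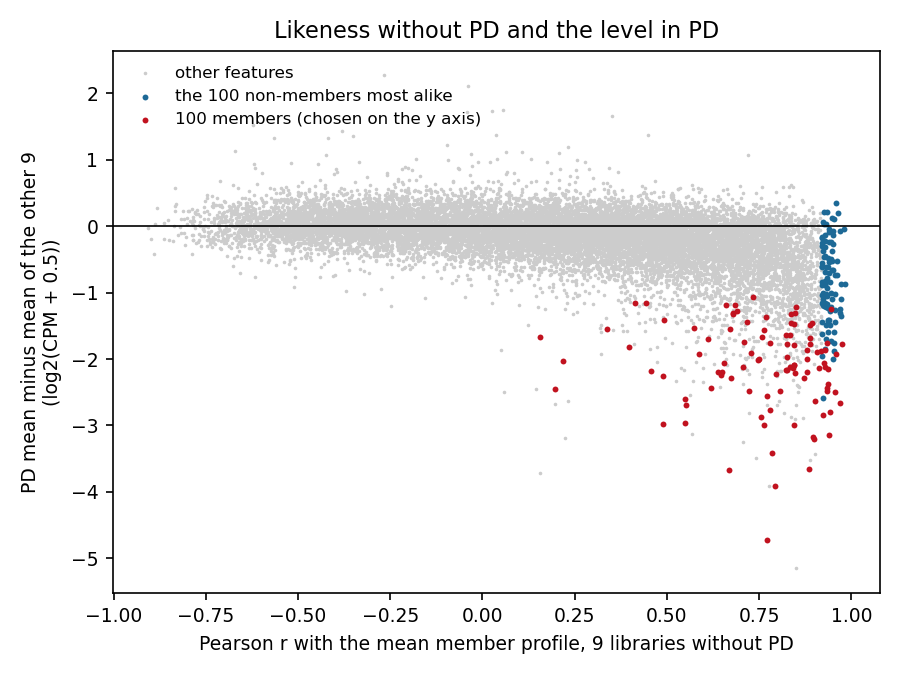
Each point is 1 of the 14985 features: Pearson r with the mean member profile over the 9 libraries without PD (horizontal axis) against the PD mean minus the mean of the other 9 (vertical axis, log2 units). Members (red) are low by selection; of the 100 most alike non-members (blue), 91 lie below 0.

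The features most like ENSRNOG00000014532 over the same 9 libraries were mainly outside the members. The 5 highest values of r were 0.959, 0.939, 0.927, 0.919 and 0.919. The fifth was the member of rank 7. The other four were not members, with gaps of -0.68, -0.28, -0.40 and 0.06, so in 3 of them at least 1 PD library lay above the lowest of the other 9.

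Whether the members differed among the groups that were not PD was tested by limma on the 9 libraries, with p-values adjusted over all 14985 features. These counts are limited by the rule, which left out any feature in which a stimulated PD rat fell to the PD level, whereas the shares over all features carry no such condition, so nothing about the members is read from their difference. Stimulated PD rats were first set against unstimulated controls. Of the members 1 was lower and 0 were higher; of all features 11.9% were called lower and 7.27% higher. Without control rat 1 the lower calls over all features fell from 1790 to 681, and they lay between 790 and 1233 without any other of the 6 rats compared. The split over all features followed the scaling, with 1089 higher and 1790 lower on the deposited CPM and 1652 higher and 1117 lower with TMM factors (edgeR on recovered reads 1584 and 1103), while the members' counts stayed at 0 and 1. At an unadjusted p under 0.05 there were 2 lower members and 0 higher, and 5278 of all 14985 features passed it in either direction. The members' median log2 difference was -0.15, against -0.09 over all features, and 37 members had a positive estimate, where 39.7% of all features did. A p that misses the threshold does not show that the groups were alike, and the members' wide spread between rats makes small differences undetectable here.

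The direction of that median rested on single rats. It was 0.17 without control rat 1 and 0.18 without stimulated PD rat 3, and -0.51 without stimulated PD rat 2, when 5 of the 100 members had a positive estimate and 2 were called lower. Without that rat 35.7% of all features had a positive estimate and 1060 were called lower. ENSRNOG00000014532 differed by -0.25 (SE 0.69, limma adjusted p = 0.833), and ENSRNOG00000043451 also by -0.25 (SE 1.24, limma adjusted p = 0.910). Both had a higher mean CPM in stimulated PD than in control rats, owing to the level in stimulated PD rat 2, so the sign depended on whether CPM or log2 values were averaged.

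The member called lower was that of rank 63. It stood at 52.8, 57.1 and 47.0 CPM in control rats, 42.4, 58.0 and 83.1 CPM in stimulated controls, 14.1, 5.27 and 11.1 CPM in PD rats and 32.8, 31.0 and 22.3 CPM in stimulated PD rats. The stimulated PD rats lay below all unlesioned rats, with no overlap, and above the PD rats, the latter by selection. Its log2 difference from control was -0.87 (SE 0.23, limma adjusted p = 0.0312). That call was lost when any 1 of the 6 rats compared was left out, and with all 12 libraries in the fit; over 21 alternatives the limma, edgeR or DESeq2 adjusted p ran from 0.00258 to 0.164.

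Stimulated controls showed no called feature against controls. Both groups are rats without 6-OHDA. Sham surgery and the schedule of the stimulated controls are not given, so stimulation and electrode surgery cannot be told apart here. By limma 0% of all features were called lower and 0% higher, and the same held for the members, of which 0 had an unadjusted p under 0.05 (596 of all features did). Without stimulated control rat 2 that threshold was passed by 2186 features, 6 of them members that were higher, and without control rat 1 by 369 features and again 6 higher members. Across the other libraries left out, 195 to 907 features and 0 to 2 members passed it. On recovered reads edgeR called 0 features, and DESeq2 called 1 higher and 3 lower, with 0 members among them. The members' median log2 difference was 0.31, against 0.03 over all features, and 81 members had a positive estimate, against 59.0% of all features. From the spread between rats, pooled over the 3 groups without PD, the SD of a difference between group means of the members' median was 0.42 log2 units. Stimulated PD rats, not compared here, spread most widely. Their median members ran from -0.71 to 0.67 around the control mean, against -0.35 to 0.55 in controls and 0.01 to 0.47 in stimulated controls. The 0.31 was smaller than the pooled SD, and no SD was computed from the groups compared alone. The members moved together, so their signs are not separate observations. Control rats 2 and 3 were low and control rat 1 high in these features, and without control rat 3 the median was 0.14 and without control rat 1 it was 0.58.

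Stimulated PD rats were lower than stimulated controls in 3 members and higher in 0; of all features 15.7% were called lower and 7.99% higher. At an unadjusted p under 0.05, 8 members were lower and 0 higher, and 5827 of all 14985 features passed it in either direction. The median log2 difference of the members was -0.39, against -0.12 over all features, and 19 members had a positive estimate, against 36.3% of all features. The members' value was again smaller in size than the pooled SD of 0.42 log2 units. Over all features 1198 were higher and 2352 lower on the deposited CPM, and 1960 and 1457 with TMM factors. The lower calls over all features fell to 1004 without stimulated control rat 3, 1360 without stimulated control rat 1, 1217 without stimulated PD rat 1 and 1414 without stimulated PD rat 3. With TMM factors the medians were -0.28 and -0.01, and after quantile normalization -0.14 and 0.02. The number of members called was 13 without stimulated PD rat 2 and 7 without stimulated control rat 2. Of all features 1996 and 2651 were then called lower. The number of members called was 1 without stimulated control rat 1 or 3 or stimulated PD rat 1 or 3.

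The 3 members called were those of ranks 63, 84 and 88, all in the lower part of the ranking. The member of rank 63 differed by -1.04 (SE 0.23, limma adjusted p = 0.0152). That of rank 84 stood at 57.1, 36.6 and 45.7 CPM in stimulated controls, 26.2, 30.3 and 22.9 CPM in stimulated PD rats and 12.7, 15.4 and 13.5 CPM in PD rats (log2 difference -0.79, SE 0.20, limma adjusted p = 0.0254). That of rank 88 stood at 16.6, 13.1 and 21.1 CPM in stimulated controls, 5.80, 10.6 and 4.30 CPM in stimulated PD rats and 2.80, 1.89 and 1.77 CPM in PD rats (log2 difference -1.30, SE 0.38, limma adjusted p = 0.0375). Without stimulated control rat 1 or 3 or stimulated PD rat 1 or 3 the calls of ranks 84 and 88 were lost, and that of rank 88 also without control rat 3 and by edgeR. With all 12 libraries in the fit all 3 calls were lost. In all 3 members the stimulated PD rats lay below every stimulated control and above every PD rat, the latter by selection.

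**Figure D5:**
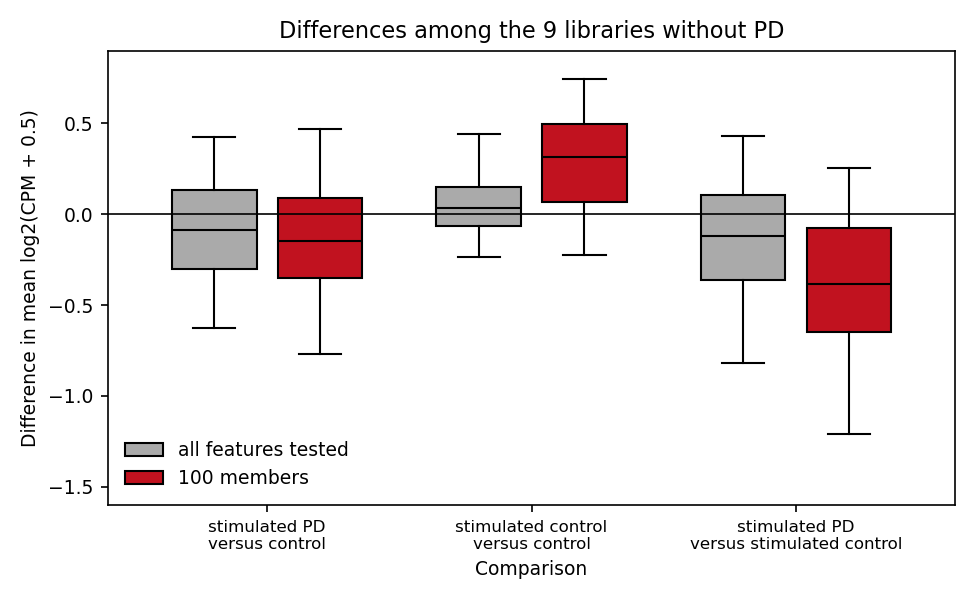
Differences in mean log2(CPM + 0.5) (vertical axis) for the 3 comparisons among the 9 libraries without PD, over all 14985 features (grey) and over the 100 members (red); boxes span the quartiles with the median line, and whiskers reach the 5th and 95th percentiles. The members' medians are -0.15, 0.31 and -0.39.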

How the data were processed

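Trim Galore, STAR, featureCounts and the assembly mRatBN7.2 are named, without versions, in the submitters' processing notes, and the library kit was stranded and poly(A)-selecting, per the labels' protocols. Annotation release, strand setting and the normalization tool were not found in those notes. Values are CPM as deposited by the authors. Every value was a whole multiple of its column's smallest step (100% within 0.001 read), so reads were recovered for edgeR and DESeq2. All 12 columns matched a sample by its description. Of 16534 identifiers 0 matched a symbol, so 23 gene lists were not applied.

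The members and lists were chosen with earlier results of these data known. Tests used limma 3.58.1 (R 4.3.3) on log2(CPM + 0.5), with a trended prior variance, two-sided p-values, Benjamini-Hochberg adjustment and a threshold of 0.05. The PD libraries, which chose the members, were left out, giving 6 residual degrees of freedom. Titles number the rats within each group, so libraries of a group are separate animals. The numbers restart in each group, and libraries of different groups were taken as different animals. The column names of the PD rats and of stimulated PD rat 3 carry other numbers than their titles, and the title numbers were used. Alternatives used pseudocounts of 0.1 and 2 CPM, other filters, TMM, median-of-ratios and quantile scaling, no variance trend, other sets of libraries, a block of rat numbers, edgeR 4.0.16 and DESeq2 1.42.0. The other scalings of the upward counts and of the counts for other groups were chosen after seeing the data. All 3 tools were run on simulated counts in which every feature had the same dispersion. This checks the code and does not show how well features as variable as the members are tested.

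Members were named by rule: the largest gaps, with at most 2 identifiers because symbols were lacking, the 4 members with the highest mean CPM and called members by rank. The members of ranks 3 and 30 were added after their values were seen.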

Additional observations from a re-analysis of the deposited data

How the results depend on the processing

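A positive gap cannot be lost by leaving out a library or by another pseudocount, so these say nothing about stability. All 100 members kept a positive gap with TMM and median-of-ratios scaling and 99 with quantile scaling; 89 passed a minimum mean of 2 CPM. The number of features with a positive gap was 426 after quantile normalization, 600 with median-of-ratios and 605 with TMM factors, and 826 to 1863 with 1 library left out. By limma with all 12 libraries in the fit, 0 members were called in stimulated PD against control and 0 against stimulated control. DESeq2 called 7 lower in the latter, where it called 2174 of all features lower. Over all features that 12-library fit called 1 higher and 4 lower against control and 66 and 151 against stimulated control; the cause was not tested. With 1 library left out the members called in these comparisons ran from 0 to 2 and from 1 to 13, all lower. The lower calls over all features ran from 681 to 2038 and from 1004 to 2651. Of 9 pairs of libraries with the same rat number in their titles, 1 had a correlation of deviations above 0.1 (range -0.46 to 0.36). With 3 rats per group this check cannot exclude a pairing of the libraries. With the replicate block, 0 members were called in stimulated PD against control and 2 against stimulated control, without ranks 63 and 88 respectively. Over all features it called 721 and 1105 lower.

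Of 21 alternatives, the member of rank 63 kept its call against control in 13 and against stimulated control in 20, that of rank 84 in 16 and that of rank 88 in 13. In all 21 alternatives the median member difference stayed positive between stimulated control and control (0.14 to 0.58). It stayed negative between stimulated PD and stimulated control (-0.73 to -0.08). The alternatives reuse largely the same libraries, so a kept sign is not a repeat. As reported, both medians were smaller in size than 0.42 log2 units, the SD of a difference between group means of the members' median. That SD is pooled over the groups without PD, of which stimulated PD rats spread most widely. The difference of ENSRNOG00000014532 between stimulated PD and control turned to 0.34 by edgeR, 0.33 by DESeq2, and with 1 library left out it ran from -1.09 (stimulated PD rat 2) to 0.55 (stimulated PD rat 3), with 0.0019 without control rat 1. That of ENSRNOG00000043451 turned to 1.62 by edgeR, 1.61 by DESeq2, and with 1 library left out it ran from -1.94 (stimulated PD rat 2) to 0.83 (stimulated PD rat 1), with 0.37 without stimulated PD rat 3. The few reads limit the precision of members with under 10 reads in a PD library.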
